A study of Mus musculus with 40 samples.

Results

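Liver DNA methylation was compared between mice that changed diet at weaning in opposite directions. The LH mice were born from low fat (LF) fed dams and were fed the high fat (HF) diet as adults. The HL mice were born from HF fed dams and were fed the LF diet as adults. The samples were chosen by these maternal and adult diets alone, which gave 10 LH and 10 HL mice of 40 in the series. The other 20 mice had the same diet throughout, 10 HH mice with HF fed dams and HF adult diet and 10 LL mice with LF fed dams and LF adult diet, and their values stand beside those of the LH and HL mice. All were male mice of 9 weeks, C57BL/6 by the labels and C57BL/6J by the study's methods. Dams were on their diet before mating and until weaning, and the males of each cage were then divided between both diets, so that LH mice may be littermates of LL mice and HL mice of HH mice, while no LH mouse shares a dam with an HL mouse. The litter of each mouse is not part of the labels used here, so p-values measure the spread between these mice, some of which may be siblings. Every LH mouse differs from every HL mouse in both diets, and the diets cannot be told apart within this comparison.

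In mammalian DNA, methyl groups sit mostly on the cytosine of CpG dinucleotides. Promoters rich in CpGs are usually free of methylation, gene bodies and the sequence between genes are mostly methylated, and imprinted genes carry methylation on the allele of a single parent. Reduced representation bisulfite sequencing (RRBS) reads this mark at single CpGs. MspI cuts the DNA at CCGG, bisulfite converts unmethylated cytosines, and methylated cytosines stay as they are. Percent methylation of a CpG is thus read on each strand as methylated over all reads. A CpG needed at least 10 reads in a mouse for a value, and values in at least 36 of the 40 mice to be analysed. This left 262317 of 400298 listed CpGs, of which 241491 could be tested between LH and HL mice. Bins of 1 kb with at least 3 such CpGs were tested as well, 30684 in all, each as the mean of its CpGs in a mouse.

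Reads at CpGs summed to 3488092 to 13768497 in LH mice and to 6717178 to 15680735 in HL mice (permutation test on log10 reads, two-sided p = 0.163). The shallowest LH mouse, LH replicate 10, lacked a value at 35.0% of the CpGs, while no HL mouse lacked more than 6.35%. Between mice, the median correlation over 19173 CpGs of intermediate methylation (20% to 80%) was 0.703 for pairs of LH mice, 0.755 for pairs of HL mice and 0.727 for an LH with an HL mouse. These correlations are across CpGs, which share reads. Pairs from different groups were no less alike than pairs of LH mice, but less alike than pairs of HL mice. The median mouse had a median coverage of 19 reads per CpG in LH and 22 in HL mice, and the part of depth in these correlations was not tested.

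The loci below were chosen from the CpGs and bins with the smallest p between LH and HL mice. The sequences are those of the forward strand of mouse build mm9, and capitals mark the measured CpGs. Scara5, Rarres1 and Arhgef2 are shown because neighbouring CpGs differed in the same direction, and Rfng, Zwint and Ppp1r3b because a single CpG differed. The CpGs that passed the test are the last 2 in Scara5, the first in Rfng and the first in the Zwint sequence. In Ppp1r3b it is CpG number 4 from the left that is described below.
Scara5 (chr14:66378361-66378537): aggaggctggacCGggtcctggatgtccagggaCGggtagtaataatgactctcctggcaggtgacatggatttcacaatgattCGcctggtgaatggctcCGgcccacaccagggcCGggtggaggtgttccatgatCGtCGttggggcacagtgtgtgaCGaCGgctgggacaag
Rarres1 (chr3:67318462-67318574): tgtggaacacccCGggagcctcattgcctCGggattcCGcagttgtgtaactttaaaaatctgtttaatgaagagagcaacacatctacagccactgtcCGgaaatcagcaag
Arhgef2 (chr3:88425508-88425620): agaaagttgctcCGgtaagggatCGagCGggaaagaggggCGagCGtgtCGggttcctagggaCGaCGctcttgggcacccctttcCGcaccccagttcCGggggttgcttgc
Rfng (chr11:120645348-120645461): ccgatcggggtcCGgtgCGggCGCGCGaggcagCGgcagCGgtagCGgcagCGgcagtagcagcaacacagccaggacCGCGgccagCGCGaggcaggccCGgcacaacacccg
Zwint (chr10:72143053-72143116): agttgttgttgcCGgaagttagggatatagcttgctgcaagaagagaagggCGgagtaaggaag
Ppp1r3b (chr8:36439614-36439798): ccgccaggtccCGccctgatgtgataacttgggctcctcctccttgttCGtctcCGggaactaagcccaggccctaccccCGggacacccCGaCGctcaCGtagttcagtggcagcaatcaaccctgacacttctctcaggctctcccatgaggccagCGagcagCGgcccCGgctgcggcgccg

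Between LH and HL mice, 4 CpGs passed a false discovery rate (FDR) of 5% in the two-sided Student's t-test with Benjamini-Hochberg adjustment over all CpGs tested, or 0.00166% of them. Both CpGs in Scara5 were lower in LH mice, and the CpGs in Rfng and near Zwint were higher. Of the bins, 1 passed the same threshold, or 0.00326%, and it held the Scara5 CpGs. This test called no other locus. The CpGs in Rfng and near Zwint did not pass in a quasi-binomial model, in limma, in the model over all groups or with at least 20 reads. Apart from limma, which works on log2 ratios, these settings gave differences of 11.2 to 11.8 percentage points in Rfng and of 6.65 to 7.40 near Zwint. Neither Scara5 CpG passed in the last 2 of these 4 settings, where the differences were -27.9 and -26.9 points at the first and -23.9 and -22.0 at the second. With log10 coverage as a covariate the second Scara5 CpG (-22.2 points) and the CpG near Zwint (7.56 points) did not pass, both with an FDR of 0.0615. The Scara5 bin did not pass in the quasi-binomial model (-22.2 points) or with at least 20 reads (-24.8 points). The count of 4 CpGs was 1 in 10 of the 20 settings that left out a single mouse, while the first Scara5 CpG and the bin passed whichever mouse was left out. At an unadjusted p below 0.05 there were 9552 CpGs (3.96%), of which 4390 were higher in LH mice (1.82%) and 5162 lower (2.14%). For bins this number was 1630 (5.31%), with 782 higher (2.55%) and 848 lower (2.76%). This balance depends on the model, as more CpGs were higher than lower in the quasi-binomial model (12989 and 11893), in limma (8600 and 6082) and with mean methylation as a covariate (5202 and 4809). The HH and LL mice, which also differ in both diets, gave 9446 CpGs (3.95%) and 1592 bins (5.19%) below the same unadjusted threshold. By FDR, 0 CpGs and 0 bins differed between HH and LL mice in the same test, and the smallest FDR was 0.540 for CpGs and 0.464 for bins. The 95% interval of a difference between LH and HL mice had a median half-width of 4.83 percentage points for a CpG and of 2.63 for a bin. This is the size that reaches an unadjusted p of 0.05, and an FDR of 5% takes a larger difference.

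**Figure D1:**
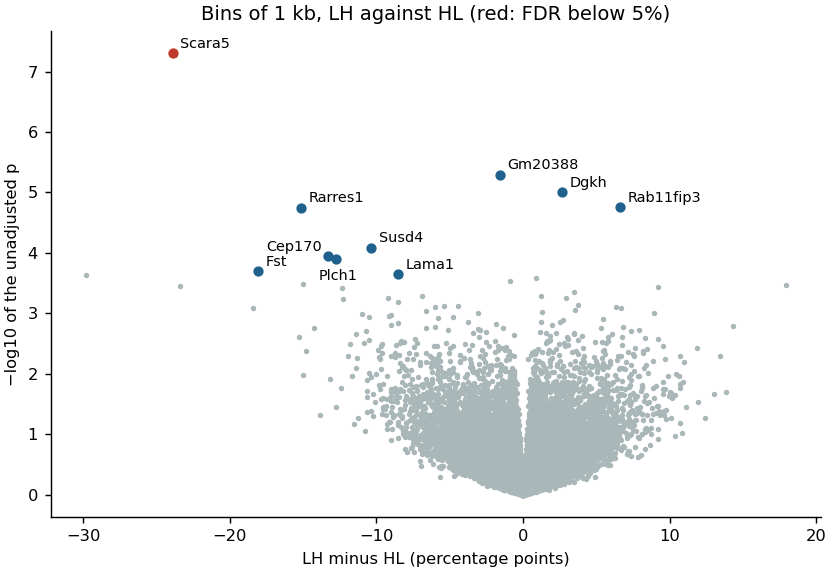
Each point is a bin of 1 kb, placed by the LH minus HL difference in percent methylation (x axis, percentage points) and by the minus log10 of its unadjusted p (y axis), with the 10 bins of smallest p labelled. The Scara5 bin, 23.9 points lower in LH mice, is the only bin at an FDR below 5%.

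Scara5 encodes a scavenger receptor that takes up ferritin, the iron storage protein. The gene lies at chr14:66285240-66383663 on the forward strand, and the analysed stretch of 9 CpGs runs over 153 bases, from base 66378373 to base 66378525. Of these CpGs, 7 lie in coding sequence and 2 in the intron before it, 7 were read on the forward and 2 on the reverse strand. Methylation of the bin was 42.9% in the lowest LH mouse, 48.2% at the median and 53.2% in the highest. In HL mice the lowest was 56.0%, the median 74.4% and the highest 84.1%. Every LH mouse was below every HL mouse, and the HL mice were spread more widely. LH mice averaged 48.4% ± 3.11 (SD, n = 10), HL mice averaged 72.3% ± 7.87 (SD, n = 10), and the difference was -23.9 percentage points (SE 2.68, 95% interval -29.5 to -18.3, FDR 0.00153). Among 16863 bins with a value in all 20 mice, this was the only bin with all LH below all HL mice (0.00593%), and 0 bins had all LH above all HL mice (0%). In bulk liver, a change in methylation within a cell type and a change in the share of cell types cannot be told apart.

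All 9 CpGs of the Scara5 stretch were lower in LH mice, with differences of -28.1 to -15.7 percentage points, and each had an unadjusted p below 0.05. The CpG at base 66378522 had the smallest p of all CpGs. Its methylation was 50%, 58.1% and 66.7% in the lowest, median and highest LH mouse, and 72.7%, 88.2% and 92.6% in HL mice. The groups did not overlap, and the difference was -27.9 percentage points (SE 2.70, FDR 0.00127). At base 66378525, the next CpG, LH mice had 50% to 77.8% (median 68.8%) and HL mice 82.6% to 100% (median 92.3%), again without overlap (-23.9 points, SE 2.96, FDR 0.0206). In both groups methylation was highest at this end of the stretch, and the difference ran along its whole length. The CpGs at bases 66378478 and 66378502 gave -28.1 and -25.6 points with FDR values of 0.0690 and 0.0861. Each value of an LH or HL mouse rested on 11 to 45 reads. The 5 forward CpGs of the last 48 bases appear to lie on mostly the same reads, though single reads were not examined. Their read totals agreed within 1 read in 26 of the 37 mice of all groups with all 5 values. They are thus not taken as 5 separate measurements. The 6 other tested CpGs of Scara5 had a median difference of 0.46 points, none with an unadjusted p below 0.05, and the 4 of them in its promoter averaged 83.3% in LH and 82.2% in HL mice.

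The HH and LL mice do not enter the comparison of LH with HL mice. At the Scara5 bin, 8 HH mice had 36.9% to 75.4% (median 41.6%) and the LL mice 48.8% to 70.8% (median 60.6%). HH mice were lower on average by 15.2 percentage points (exact permutation test, two-sided p = 0.00992, FDR 0.923 over all bins). The HH mouse at 75.4%, HH replicate 1, lay above every LL mouse, while the other 7 were at 46.0% or below, under the lowest LL mouse. Without it, a choice made after its value was seen, the difference was -19.5 points. Leaving out any other HH or LL mouse gave p-values of 0.00782 to 0.0198 (exact permutation tests). At base 66378522, HH mice averaged 50.7% and LL mice 77.4% (exact permutation p = 0.00313, FDR 0.817). The sign was that of LH minus HL at 7 of the 9 CpGs, 5 of them with an unadjusted p below 0.05. The first CpGs of the stretch differed little, with 47.1% in HH and 51.1% in LL mice at base 66378373 and 38.6% and 37.1% at base 66378394.

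**Figure D2:**
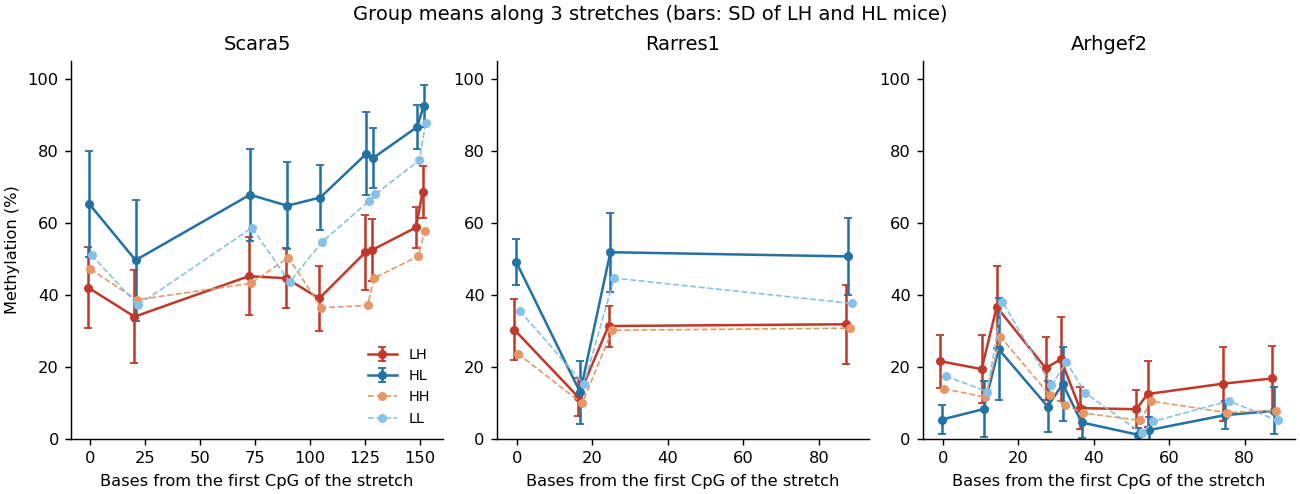
Mean percent methylation of each CpG (y axis) by distance in bases from the first CpG of the stretch (x axis) in Scara5, Rarres1 and Arhgef2, with solid lines and SD bars for LH and HL mice and dashed lines for HH and LL mice. LH mice lie below HL mice at all 9 Scara5 and all 4 Rarres1 CpGs, and above them at all 10 Arhgef2 CpGs.

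From the 4 group means, the LH minus HL difference equals the averaged effect of the adult diet minus the averaged effect of the maternal diet. A linear model over all 40 mice gave these parts for each locus, and since it contains the LH and HL mice its parts describe the same difference. In the Scara5 bin, mice fed HF after weaning were lower by 19.5 percentage points (SE 2.77, FDR 0.00122), and mice born from HF fed dams were higher by 4.36 points (SE 2.77, FDR 0.975). Both parts include HH replicate 1, at 75.4%, and were not computed without it. The adult diet term passed an FDR of 5% at 7 CpGs. Of these, 4 in Scara5 and 1 in Rarres1 were lower with the HF diet, and 1 in Rfng was higher. It passed at 2 bins as well, Scara5 and Rarres1, both lower. The maternal term passed at 0 CpGs and 0 bins in this model, where 10097 CpGs and 1541 bins had an unadjusted p below 0.05. Its lowest FDR was 0.508 for CpGs and 0.0891 for bins.

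Rfng encodes radical fringe, a glycosyltransferase that modifies Notch receptors. Its CpG at chromosome 11, base 120645360, lies in coding sequence, 139 bases from the nearest annotated transcription start of the gene, which runs over chr11:120642060-120645521 on the reverse strand. A value was had in 7 of 10 LH mice, at 11.8% to 19.05% (median 14.3%), and in all HL mice, at 0% to 7.14% (median 3.72%). Every LH mouse with a value was above every HL mouse, and LH mice were higher by 11.7 percentage points (SE 1.33, FDR 0.0206, exact permutation p = 0.000103). The 14 CpGs within 100 bases of it gave differences of -1.14 to 0.90 points, 5 of them in the same direction. The HH mice averaged 7.31% and the LL mice 1.61% (exact permutation p = 0.0095, FDR 0.817). The adult diet part was 8.71 points (FDR 0.00346) and the maternal part -3.01 points (FDR 0.877).

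The CpG near Zwint, a gene for a kinetochore protein, lies between genes at chromosome 10, base 72143065, which is 23726 bases from the nearest transcription start. In 9 of 10 LH mice it was methylated at 95.2% to 100% (median 100%), and in HL mice at 88.5% to 95.3% (median 90.9%). The ranges touched, with 8 LH mice above the highest HL mouse, and LH mice were higher by 7.40 percentage points (SE 0.964, FDR 0.0383, exact permutation p = 4.33e-05). Its single neighbour within 100 bases differed by 0.90 points. The HH and LL mice averaged 93.4% and 93.9% (permutation p = 0.849), so the direction seen between LH and HL mice did not recur in them.

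**Figure D3:**
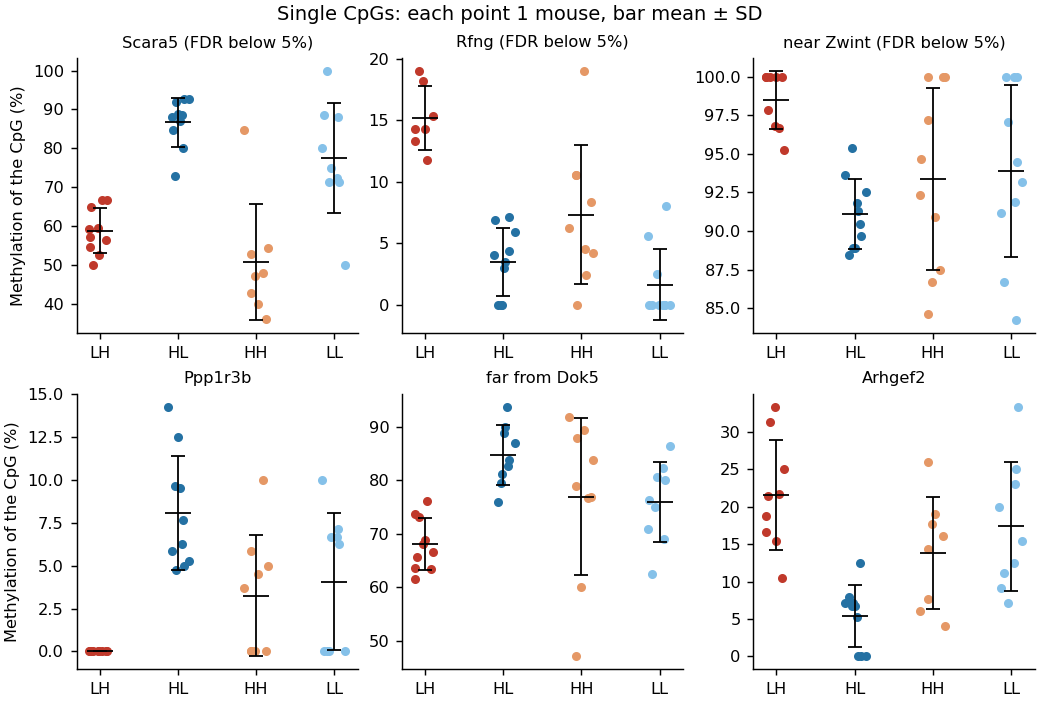
Percent methylation (y axis) of 6 single CpGs in each mouse of the 4 groups, with the mean and SD as bars, where Scara5 is base 66378522. LH and HL mice are separate at Scara5, Rfng and Ppp1r3b, while the HH and LL mice overlap at every one of the 6 CpGs, at Scara5 with 1 HH mouse at 84.6%.

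Ppp1r3b encodes the subunit that brings protein phosphatase to glycogen in the liver and promotes glycogen synthesis. At its intronic CpG at chromosome 8, base 36439694, which is 899 bases from the transcription start, all 9 LH mice with a value had 0%. The reads of these mice summed to 0 methylated of 200, which allows a share of up to 1.5% by counting error. HL mice had 4.76% to 14.3% (median 6.97%), from 21 methylated of 241 reads, or 8.71% (95% exact binomial interval 5.47% to 13.0%). No LH mouse reached any HL mouse. The difference of -8.08 percentage points (SE 1.11) had an FDR of 0.0628 and thus did not pass in the t-test. It passed in 2 other models, a quasi-binomial model on the read counts (FDR 0.000842) and limma on log2 ratios of the reads (FDR 0.0139). These models gave an unadjusted p below 0.05 at 10.3% and 5.60% of the CpGs they tested, against 3.96% in the t-test. In other settings the FDR of this CpG reached 0.878, and it passed in 1 of the 20 that left out a single mouse. The HH and LL mice averaged 3.24% and 4.08% (exact permutation p = 0.644). Of 9 neighbours within 100 bases, 3 were lower in LH mice, and their differences ran from -0.57 to 1.73 points.

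Of 120591 CpGs with a value in all 20 mice, all LH mice were above all HL mice at 1 CpG (0.000829%) and below them at 4 (0.00332%). The CpG with LH above HL lies in the Pou2f3 promoter, the gene of a POU transcription factor of tuft cells, where LH mice had 10% to 25.8% and HL mice 0% to 9.52% (FDR 0.713). The 4 with LH below HL were 3 CpGs of Scara5 and an intronic CpG of BC025920, at 85.7% to 96.4% in LH and 97.1% to 100% in HL mice (FDR 0.748). Among these CpGs with values in all 20 mice, the largest differences with an unadjusted p below 0.05 did not pass the FDR. They were -31.0 and -30.1 points at a pair of CpGs 44590 and 44628 bases from Pou3f3, a gene of a neural POU factor, and -29.5 points in an intron of Spred2, an inhibitor of Ras signalling. In the other direction they were 26.0 points in the coding exon of Mn1, a transcriptional coregulator, 18.9 points in Gucy2c, a guanylate cyclase receptor, and 18.7 points in an intron of Slc6a6, the taurine transporter. The LH and HL ranges of these 6 CpGs overlapped, as at Mn1, where LH mice had 31.8% to 76.5% and HL mice 12.5% to 53.3%.

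Dok5, an adaptor of receptor tyrosine kinases, is the gene with the nearest transcription start to a CpG at chromosome 2, base 170986061, though 428754 bases away. LH mice had 61.5% to 76.1% (median 67.3%) and 9 HL mice 75.9% to 93.8% (median 83.9%), which overlapped slightly, and the difference was -16.7 points (FDR 0.0861). HH and LL mice averaged 76.9% and 75.9%. Arhgef2 encodes a protein that binds microtubules. Its stretch of 10 CpGs near the transcription start, from base 88425520 of chromosome 3, averaged 10.8% to 26.6% (median 16.7%) in 9 LH mice and 3.57% to 13.4% (median 8.15%) in HL mice. All 10 CpGs were higher in LH mice, by 3.98 to 16.2 points, and 7 had an unadjusted p below 0.05, but the CpG with the smallest p had an FDR of 0.368. HH mice averaged 10.9% and LL mice 14.0% over the stretch (permutation p = 0.330), the opposite direction to LH and HL. A CpG in the Zfp236 promoter, 717 bases from its start, differed by -7.62 points between LH and HL mice (FDR 0.368), and by -4.73 points between HH and LL mice (exact permutation p = 0.0238).

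Rarres1 is a gene that responds to retinoic acid, and 4 CpGs of its intron, from base 67318474 to base 67318562 of chromosome 3, form the bin with the largest difference after Scara5 among the 5 bins with the smallest p. Methylation was 20.6% to 31.7% (median 26.1%) in 9 LH mice and 30.5% to 53.3% (median 40.6%) in HL mice. Of the LH mice, 8 were below the lowest HL mouse. The difference was -15.1 percentage points (SE 2.57, exact permutation p = 4.33e-05), and its FDR of 0.110 did not pass. Its CpGs were lower by 18.9, 20.5 and 18.9 points, apart from the CpG at base 67318491, which was at 11.6% in LH and 12.9% in HL mice. HH mice had 13.5% to 32.5% and LL mice 21.9% to 43.4%, a difference of -10.1 points (exact permutation p = 0.00344, FDR 0.857). The adult diet part of -12.6 points passed the FDR over all bins (0.0027), and the maternal part was 2.50 points.

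**Figure D4:**
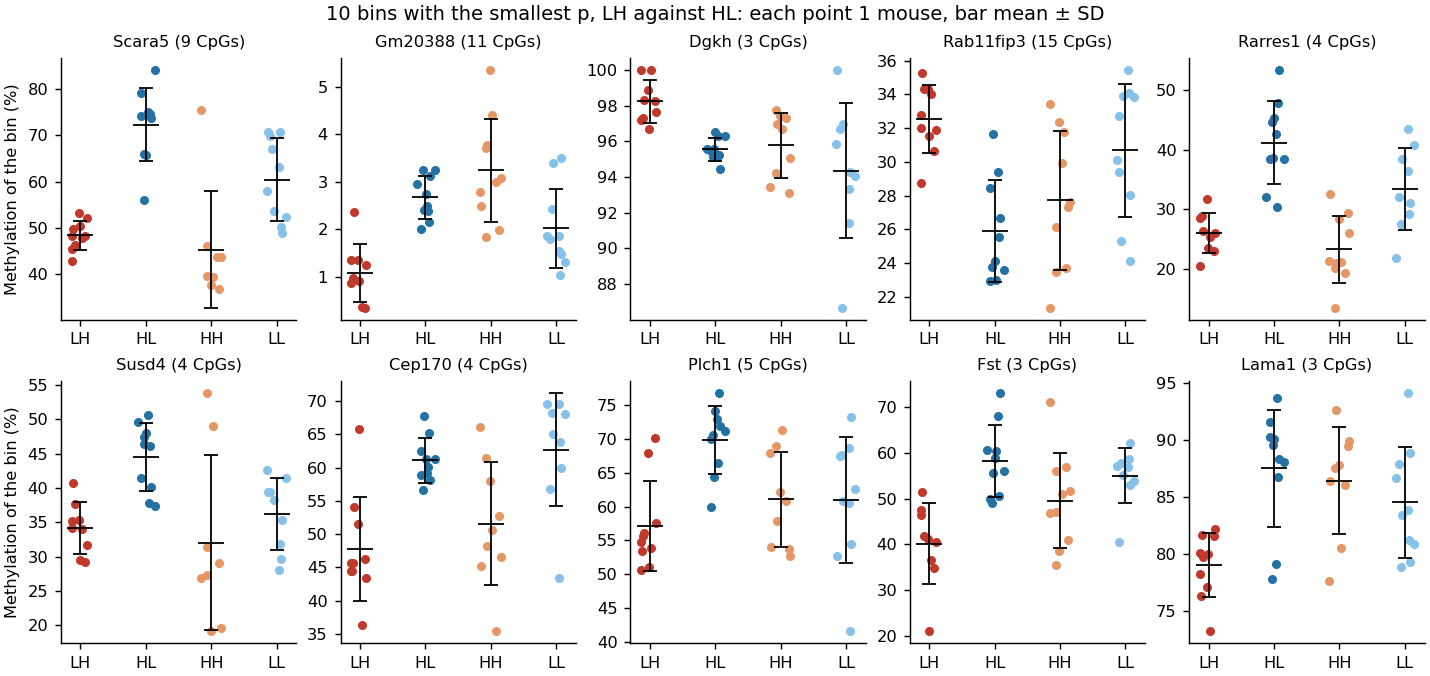
Percent methylation (y axis) of the 10 bins with the smallest p in each mouse of the 4 groups, with the mean and SD as bars. LH and HL mice do not overlap in the Scara5 and Dgkh bins, and in the other 8 bins their ranges overlap.

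Of the 10 bins with the smallest p, 8 were lower in LH mice. In the bin with the second smallest p, within an intron of the long gene model Gm20388 on chromosome 8, 1112 bases from the nearest start, that of Gse1, methylation was near 0 in all mice. It was 0.35% to 2.36% (median 0.99%) in 9 LH mice and 2.01% to 3.25% (median 2.62%) in HL mice, and the difference was -1.59 points (FDR 0.0777). Here the HH mice were higher than the LL mice by 1.22 points (permutation p = 0.0118, FDR 0.933). The maternal part was 1.404 points (FDR 0.0891) and the adult diet part -0.18 points. Rab11fip3 encodes an effector of Rab11 in recycling endosomes. Its coding bin of 15 CpGs was at 28.7% to 35.3% (median 32.4%) in LH and 22.9% to 31.6% (median 24.8%) in HL mice, with 14 CpGs higher in LH mice. The difference of 6.64 points had an FDR of 0.110. Here too the maternal part, -4.81 points (FDR 0.523), was larger in size than the adult diet part of 1.83 points.

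Dgkh, a diacylglycerol kinase gene, had a coding bin of 3 CpGs at 96.7% to 100% (median 98.3%) in 9 LH mice and 94.4% to 96.6% (median 95.5%) in HL mice. These ranges did not overlap, but the difference was 2.68 points and the FDR 0.102. The remaining bins had FDR values from 0.421 to 0.655. Susd4, a complement inhibitor, was lower in LH mice by 10.3 points, Plch1, a phospholipase C, by 12.7 points at its promoter, Fst, which encodes the activin-binding follistatin, by 18.1 points, and Lama1, a laminin chain, by 8.50 points. At Lama1 the maternal part was 5.196 points and the adult diet part -3.30 points, and at Plch1 they were 6.41 and -6.33 points. The bin nearest Cep170, a centrosomal protein gene, lay between genes and was lower by 13.3 points, and HH mice were lower than LL mice there by 11.1 points (exact permutation p = 0.0192, FDR 0.940). At Plch1, HH and LL mice averaged 61.1% and 61.0%, against 57.1% in LH and 69.9% in HL mice.

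**Figure D5:**
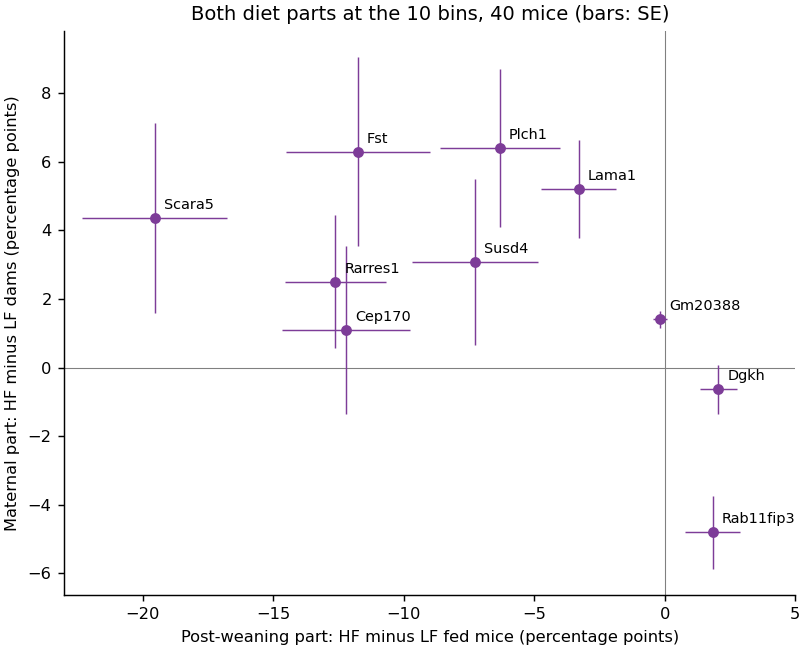
The parts of the LH minus HL difference at the 10 bins, with the adult diet part on the x axis and the maternal diet part on the y axis, both as HF minus LF in percentage points with SE bars. Scara5, at -19.5 and 4.36 points, and Rarres1, at -12.6 and 2.50 points, lie far to the left, while the maternal part is the larger in size at Rab11fip3, Gm20388, Lama1 and Plch1.

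Over the CpGs and bins named above, the HH minus LL difference had the sign of LH minus HL at 11 of 18 CpGs and 6 of 10 bins. Over all CpGs with a difference in both comparisons this share was 50.8%, and it was 59.7% (126 of 211) at CpGs with an LH against HL p below 0.001. For bins the shares were 50.6% and 62.2% (23 of 37). CpGs of the same stretch share reads, so these are counts and not tests.

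Genes of hepatic lipid and glucose metabolism were examined as lists. Over all tested CpGs the median LH minus HL difference was -0.07 points, and 2.69% of promoter CpGs, 4.71% of exonic and 4.97% of intronic CpGs had an unadjusted p below 0.05. Of 110 promoter CpGs of cholesterol synthesis and uptake genes, 1 was below this threshold (0.909%, median difference 0.0048 points), and of 156 other CpGs in these genes 18 were (11.5%, 8 higher and 10 lower in LH mice, median 0.57). The single promoter CpG lay in Srebf1, which encodes a regulator of sterol and fatty acid synthesis, with means of 8.11% in LH and 2.35% in HL mice (FDR 0.810). In fatty acid and triglyceride synthesis genes, 4 of 199 promoter CpGs (2.01%) and 11 of 154 other CpGs (7.14%) were below the threshold. Acaca, the first committed enzyme of that pathway, had its promoter CpG of smallest p at 8.13% in LH and 16.4% in HL mice. In fatty acid oxidation genes, 1 of 73 (1.37%) and 2 of 38 (5.26%) CpGs were below it, the former in Hadha, a subunit of the mitochondrial trifunctional protein, with 5.53% in LH and 0.98% in HL mice. At this CpG the HH mice were also higher than the LL mice, by 3.98 points (exact permutation p = 0.0487, FDR 0.817). Of the neighbours within 100 bases, 3 of 8 went in the direction of the Srebf1 CpG, 0 of 1 in that of Acaca and 1 of 4 in that of Hadha.

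In glucose handling genes, 2 of 61 promoter CpGs (3.28%) were below the threshold, both lower in LH mice, and 6 of 69 other CpGs (8.70%), among them the CpG of Ppp1r3b. The former include a CpG of Pygl, liver glycogen phosphorylase, at 0% to 13.6% (median 4.41%) in LH and 4.17% to 23.1% (median 10.4%) in HL mice. Insulin and IGF signalling genes had 6 of 207 promoter CpGs (2.90%) and 8 of 147 others (5.44%) below it. For Pik3r1, a regulatory subunit of phosphoinositide kinase, the promoter CpG of smallest p was at 0% to 10.7% (median 0%) in 8 LH mice and 3.45% to 25.0% (median 11.4%) in HL mice. Nuclear receptor genes of bile acid and lipid sensing had 7 of 173 promoter CpGs (4.05%, 6 higher in LH mice) and 8 of 241 others (3.32%). In Rarg, a retinoic acid receptor gene, a promoter CpG averaged 17.6% in LH and 3.87% in HL mice, and the ranges overlapped. Of the neighbours within 100 bases, 4 of 5 went in the direction of the Pygl CpG, 4 of 4 in that of Pik3r1 and 10 of 11 in that of Rarg. No CpG of these lists passed an FDR of 5%.

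Acute phase and NF-kappaB genes had 2 of 123 promoter CpGs (1.63%) and 2 of 95 others (2.11%) with an unadjusted p below 0.05, all lower in LH mice. Stat3, the main signal transducer of the acute phase, averaged 2.67% in LH and 9.28% in HL mice at its promoter CpG of smallest p. Circadian clock genes had 2 of 162 (1.23%) and 8 of 179 (4.47%), with Cry1, a clock repressor, at 9.00% in LH and 2.75% in HL mice. Among DNA methylation and methyl donor enzymes, 2 of 149 (1.34%) and 9 of 139 (6.47%) were below the threshold, and Dnmt1, the maintenance methyltransferase, averaged 10.4% in LH and 3.13% in HL mice at a promoter CpG. Imprinted loci had 13 of 151 promoter CpGs (8.61%, 7 higher and 6 lower in LH mice, median difference -0.28 points) and 2 of 91 others (2.20%). Plagl1, an imprinted zinc finger gene, had a promoter CpG at 26.7% to 60% (median 42.4%) in 9 LH mice and 43.5% to 70.0% (median 56.8%) in HL mice. Of the neighbours within 100 bases, 0 of 1 went in the direction of the Stat3 CpG and 5 of 16 in that of Cry1. The numbers were 1 of 8 for Dnmt1 and 15 of 15 for Plagl1. The loci that the study amplified one by one, which it chose on these animals and which include Plagl1, had 11 of 143 (7.69%) and 2 of 111 (1.80%). The smallest FDR of these lists was 0.810.

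RRBS covered few CpGs of the marker genes of single liver cell types. Hepatocyte markers had 12 promoter CpGs, 0 with an unadjusted p below 0.05 in the t-test, and 5 of 36 other CpGs below it (13.9%, 4 higher in LH mice). The promoter CpGs averaged 20.8% in LH and 20.2% in HL mice, and that of smallest p, in the antitrypsin gene Serpina1b, 72.9% and 79.5%. Markers of Kupffer cells and other leukocytes had 0 of 7 promoter CpGs and 0 of 22 others below it. The numbers were 0 of 5 and 5 of 76 for endothelial, 3 of 48 and 1 of 33 for stellate, 0 of 29 and 3 of 35 for biliary and 0 of 15 and 0 of 23 for adipocyte markers. With the CpGs of each promoter averaged, 1 of 2 biliary promoters was below the threshold, higher in LH mice, and 0 promoters of each other marker list. Over each list, the promoter CpGs averaged 83.0% in LH and 82.6% in HL mice for leukocytes, 2.28% and 1.81% for endothelial, 7.87% and 7.61% for stellate (of the 3 CpGs below the threshold, 2 were higher in LH mice), 14.9% and 13.2% for biliary and 1.01% and 1.32% for adipocyte markers. The promoter CpG of smallest p averaged 82.8% in LH and 88.3% in HL mice for leukocytes (Itgam, an integrin gene) and 0% and 0.756% for endothelium (Kdr, a VEGF receptor gene). It averaged 0.303% and 2.28% for stellate cells (Des, desmin), 22.6% and 13.3% for biliary cells (Krt7, a keratin gene) and 2.12% and 7.02% for adipocytes (Pparg, a nuclear receptor gene). For hepatocyte, leukocyte, endothelial and stellate markers this single CpG was lower in LH mice while the mean of the list was higher. The part of cell composition in the differences at Scara5 and the other loci was not tested.

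When the CpGs of each promoter were averaged, 0 of 10973 promoters passed an FDR of 5% (0%) between LH and HL mice by the t-test, by Welch's test or as the LH minus HL contrast in the model over all groups, and 513 (4.68%) had an unadjusted p below 0.05. The smallest FDR was 0.646. It was shared by the promoters of Mosc1, Pgp, Bag3, Zdbf2, Lrp4 and 9030624J02Rik. Mosc1, which encodes a mitochondrial molybdenum enzyme, had 7.06% ± 1.86 (SD, n = 10) in LH and 4.16% ± 0.719 (SD, n = 10) in HL mice over 29 CpGs, a difference of 2.90 points, and 5.58% in HH and 3.93% in LL mice. Its adult diet part of 2.27 points (SE 0.396, FDR 0.0173) was the 1 promoter call of that term. Lrp4, a gene of the LDL receptor-related family, had 15.8% in LH and 10.4% in HL mice, and Bag3, a co-chaperone gene, 0.469% and 1.35%. Of these 6 promoters, 4 were higher and 2 lower in LH mice.

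Averaged over the 34368 CpGs covered in all 40 mice, methylation was 39.2% to 39.9% in LH mice and 39.4% to 39.97% in HL mice. The means of 39.6% ± 0.260 (SD, n = 10) and 39.7% ± 0.164 (SD, n = 10) differed by -0.12 points, less than the spread in LH mice (permutation test, two-sided p = 0.216). Promoter, exonic, intronic and intergenic CpGs, and CpGs of low, intermediate and high methylation, gave adjusted p-values of 0.255 to 0.364. The sign of this difference turned under 3 other ways of averaging, with 0.0688, 0.587 and 0.850 points. LH mice averaged lower on 17 of 20 chromosomes, 1 with an unadjusted p below 0.05 (chromosome 15, -0.38 points, permutation p = 0.0200) and 0 after adjustment. Among CpGs, the intermediate ones (20% to 80%) had the largest share with an unadjusted p below 0.05, at 6.02%, against 1.89% under 5% methylation. Of the intermediate ones, 923 were higher and 1471 lower in LH mice. More were also lower than higher at 80% to 95% (1514 and 1041) and under 5% (1000 and 808). More were higher than lower at 5% to 20% (1011 and 741) and at 95% or above (607 and 436).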

How the data were processed

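DNA from the livers of 40 mice was cut with MspI, size selected, bisulfite converted and sequenced. The authors aligned single-end reads with Bismark (build mm9; versions are not given in the sources used here). They deposited, per CpG cytosine and mouse, the count of methylated reads, the total count and their fraction, without normalization, and with the total missing under 10 reads. Every deposited fraction equalled the ratio of its counts within 1e-06. The file lists CpGs with a total in 33 mice or more, and 36 were required here. Positions on chromosomes (399856) all fell on CpGs of the mm9 reference, whose annotation named genes and promoters (1000 bp before to 500 bp after a transcription start). A CpG outside genes took the nearest start.

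Percent methylation was compared between 10 LH and 10 HL mice, grouped by the labels, by Student's t-test (two-sided), as in the study's methods, at least 3 values per group and Benjamini-Hochberg adjustment over all CpGs, bins or promoters. A mouse needed 3 CpGs of a bin. Single values were compared by permutation tests (100000 resamples, smallest p 2e-05) or exact permutation tests where a group had fewer than 10 values. Diet parts came from a linear model with both diets and their interaction. Named were all features with an FDR below 5%, the 10 CpGs and 10 bins with the smallest p, the 3 largest differences in each direction and CpGs without overlap among those with values in all 20 mice, and the promoter CpG of smallest p in each of 17 gene lists. The members and lists were chosen with earlier results of these data known. Alternatives were Welch's, exact Wilcoxon, quasi-binomial and limma tests (log2 ratios with 0.5 added), the model over 4 groups, at least 20 reads, other filters, covariates and leaving out each mouse. Promoter means, stretches, CpGs without overlap and the HH and LL values without single mice were added after seeing the data. Student's, Welch's, exact Wilcoxon and quasi-binomial tests were checked on reads simulated with counting error alone and no further spread between mice. Differences were set there only at CpGs of intermediate methylation, so the finding of differences at low or high methylation was not checked. Reads carry no molecular identifiers, so read intervals cover counting error only. Coverage per mouse, at a median of 12 to 34 reads per CpG in LH and HL mice, sets the precision of single values. Python 3.11.15, numpy 2.4.6, scipy 1.17.1, pandas 2.3.3, R 4.3.3 and limma 3.58.1 were used. The other assays of the study were not used here. Of the CpGs called for adult diet, 1 is not reported here.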

Additional observations from a re-analysis of the deposited data

Results flagged for a closer look

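Of 72 groups of mice examined, 8 held a mouse far from the others of its group by Dixon's test, where chance alone gives about 1 in 20. Of these, 4 concern Scara5, in HH replicate 1 or LH replicate 10. The Scara5 bin contains both flagged Scara5 CpGs, so the flags of HH replicate 1 there are not separate events. The 72 groups are thus not independent, and 8 cannot be set directly against 1 in 20. HH replicate 1 was at 75.4% in the Scara5 bin, where the next HH mouse was at 46.0%. At the Scara5 CpG at base 66378522 it was at 84.6% against 54.3% for the next, and at base 66378525 at 96.3% against 60.7%. Without a flag, HH replicate 1 was also the highest HH mouse in the Susd4 (53.8%) and Cep170 (66.2%) bins. It was the lowest in the Rab11fip3 (21.3%), Gm20388 (1.85%) and Lama1 (77.6%) bins, and at neither end in the Dgkh, Rarres1, Plch1 and Fst bins. The HH means of these bins include it. LH replicate 10, the LH mouse with the fewest reads, was at 50% at base 66378525, where the next lowest LH mouse was at 66.7%, so that this mouse lay further from the HL mice than the others. In the Gm20388 bin LH replicate 2 was at 2.36%, next to 1.36%, the only LH mouse within the HL range. Near Cep170, LL replicate 4 was at 43.3% against 56.7%, and at Fst LL replicate 7 was at 40.6% against 52.9%. In mean methylation HH replicate 2 was at 38.4%, with the next HH mouse at 39.2%.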

How the results depend on the processing

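The Scara5 CpG at base 66378522 and the Scara5 bin passed an FDR of 5% without any single LH or HL mouse (FDR 0.000112 to 0.00545 and 1.95e-05 to 0.00582). The second Scara5 CpG passed in 9 of these 20 settings, Rfng in 10 and Zwint in 4. The count of 4 CpGs was 1 to 6 without single mice. It was 1 without LH replicate 1, 2, 4, 7, 8 or 9 or HL replicate 3, 5, 7 or 10, and 2 without HL replicate 8. It was 0 in the exact Wilcoxon test, whose smallest p of 1.08e-05 at this size, which both Scara5 CpGs and the bin had, gave an FDR above 5%, so that this test says nothing about their stability. It was 0 for the LH minus HL contrast in the model over 4 groups. It was 2 with at least 20 reads, both other CpGs than the 4, 2 with a value in all 20 mice and 2 with log10 coverage as a covariate, where the second Scara5 CpG and Zwint were lost, and 3 to 5 in the other settings. The first Scara5 CpG then had an FDR of 0.127 (4 groups) and 0.168 (20 reads), and the bin of 0.104 (quasi-binomial) and 0.404 (20 reads). Rfng and Zwint were not called by the quasi-binomial model, limma, the model over 4 groups or with 20 reads. The count of 1 bin was 2 with at least 5 CpGs per bin, the added one being Gm20388 (FDR 0.0408), and 0 in the Wilcoxon test, in the quasi-binomial model and with at least 20 reads, the last 2 added after seeing the data. Without single mice it was 1 to 3, with 2 without LH replicate 2, 3 without LH replicate 7 and 2 without HL replicate 3. At an unadjusted p below 0.05 the count of 9552 CpGs was 24882 in the quasi-binomial model, 14682 in limma and 4533 with a value in all 20 mice (1990 higher and 2543 lower), and 9073 to 9803 without single mice. That of 1630 bins was 815 with at least 5 CpGs and 1556 to 1714 without single mice. The excess of lower over higher CpGs turned in the quasi-binomial model (12989 higher, 11893 lower), limma (8600 and 6082) and with mean methylation as a covariate (5202 and 4809), and that of bins with at least 5 CpGs (425 and 390), in limma (833 and 768), with that covariate (867 and 755) and without LH replicate 4 (851 and 848). The causes were not tested, apart from the fewer CpGs or bins under stricter filters.

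Mean methylation was lower in LH mice by 0.12 points, and by 0.086 to 0.16 points without single mice, but higher by 0.0688 over all CpGs of the 36-mouse set, by 0.587 where every mouse had at least 20 reads and by 0.850 as methylated reads divided by all reads, with permutation p-values of 0.631, 0.456 and 0.466. Exonic CpGs turned to 0.0795 in the first of these settings. In the second, exonic CpGs turned to 0.527, intronic to 1.29, intergenic to 0.566 and CpGs of 10% to 90% methylation to 0.741, and in the third, intronic to 0.0206, intergenic to 1.24 and those of 10% to 90% to 0.440. No paired analysis was possible because LH and HL mice share no dam, their litters are not in the labels used here, and the replicate numbers only follow the order of the samples. Most values rest on 10 to 40 reads, which limits a single CpG of a mouse to coarse steps.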

Other observations

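In 13 of the 30684 bins tested, at least 5 CpGs had an unadjusted p below 0.05 in the same direction, which bins with many CpGs reach more easily. These bins were picked after their values were seen, so no separate test is given, and CpGs of a bin share reads. Apart from Scara5, their FDR in the t-test over all bins was 0.713 to 0.972. In 8 of them LH mice were higher. All 14 CpGs of a Gnas promoter, an imprinted gene of a stimulatory G protein, were higher, with bin means of 54.7% in LH and 43.7% in HL mice, while HH and LL mice averaged 46.7% and 49.7%. An intron of Rnf144b, a ubiquitin ligase gene, had 37.2% and 26.6%, with LH mice from 18.96% to 62.7% and HL mice from 22.1% to 32.7%. A bin nearest to Klf10, a Krüppel-like factor gene, had 44.4% and 34.8%. The exons of Tnxb, which encodes tenascin X, had 16.1% and 13.2%, with 34 of 44 CpGs higher, and the promoter of Fgfr3 20.4% and 17.9%, with 19 of 25 higher. The other 5 were lower in LH mice by that count. Beside Scara5 these were exonic CpGs of Zkscan5, a zinc finger gene, at 76.8% against 85.6%, the bin of 1700027D21Rik, at 41.1% against 50.1%, and 23 of 28 promoter CpGs of Plagl1, at 43.3% against 49.5%. The bin of Zic2, another zinc finger gene, hardly differed as a whole, at 2.58% against 2.82%, with 13 CpGs higher and 20 lower. At Zkscan5 the HH mice averaged 72.2% and the LL mice 85.5%, and at Plagl1 47.0% and 44.2%.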
